A study of Oryza sativa with 8 samples.

Results

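The open chromatin described here consists of 8789 short regions of the indica rice cultivar 93-11 that carried an ATAC-seq peak in every one of its 4 libraries, kept under normal conditions or exposed to heat stress (HS). ATAC-seq uses the Tn5 transposase to insert sequencing adapters into accessible DNA, and a peak is a stretch in which insertions pile up above the background. To find the regions, the peaks of the 4 lists on chromosomes 1 to 12 were pooled, overlapping or touching peaks were merged, and merged regions were kept that held a peak of all 4 lists and were narrower than 1000 bp. The 8789 regions were 15.8% of the 55565 merged regions of 93-11, and 92.5% of the 9503 that held a peak of every list. The other 714 of these measured 1 kb or more. Over both cultivars of the series there were 105171 merged regions.

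The plants were 3-week-old seedlings of 93-11 and of the japonica cultivar Nipponbare (Nip), grown in nutrient solution under short days, and the aerial parts were sampled. The HS plants were kept at 45 °C for 36 h, per the study's methods at high humidity and in weaker light than that given for growth. How the Normal plants were lit and humidified over those hours was not stated, so heat cannot be told apart from the rest of the treatment. Each of the 4 groups (93-11 Normal, 93-11 HS, Nip Normal and Nip HS) had 2 libraries, which the study's methods call biological replicates, and the spread given below is that between these libraries. The aerial parts of a seedling hold many cell types, and fewer open cells cannot be told apart from less accessible DNA in each cell.

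Open regions that persist from one condition to another are commonly promoters of genes used in most cells, together with enhancers that stay free of nucleosomes. In plants, heat is known to release heat shock factors, which bind promoters of chaperone genes, and to change nucleosome occupancy elsewhere. The width of an ATAC-seq peak depends on how far the accessible stretch reaches and on how far its flanks stand above the background of the library. The peaks were placed on the 93-11 genome, for which no annotation was used here, so the regions are given by position only, and the genome build was not given in the sources used here.

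Membership was decided by the presence of a peak in each list and by the merged width. The width and the strength of these peaks are therefore given as a description, and no call is made from a test of them. For each region and library, width is the number of bases covered by peaks. Strength is the percentile of the strongest peak of the region among all peaks of that list on the 12 chromosomes, ranked by the deposited value, which was read as −log10 p. A shift is the mean of the HS libraries minus the mean of the Normal libraries.

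The sequencing depth of the libraries is unknown, since the lists carry no read counts. The 93-11 lists held 31584 and 30632 peaks on the 12 chromosomes in Normal replicates 1 and 2, and 24940 and 22684 in HS replicates 1 and 2. The background rate recovered from the most frequent values, in fragments expected by chance over a base, was 6.11 and 6.67 in Normal and 4.41 and 4.66 in HS, or 6.39 ± 0.397 against 4.53 ± 0.180 (SD, n = 2). The median −log10 p of the regions was 14.5 and 14.8 in Normal and 10.2 and 10.6 in HS. From Normal to HS its group mean shifted by -29.1%, and that of the background rate by -29.1%. List lengths, background rates, −log10 p and widths thus moved together, and the part of the background rate in the shifts below was not tested.

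The regions were narrower under HS in both libraries. The median width was 394 bp in Normal replicate 1, 408 bp in Normal replicate 2, 312 bp in HS replicate 1 and 316 bp in HS replicate 2. The means of these medians were 401 ± 9.90 bp in Normal and 314 ± 2.83 bp in HS (SD, n = 2), a shift of -87 bp or -21.7%. This was larger than the spread between replicates, whose pooled SD was 7.28 bp. The middle range of widths, from the lower to the upper quartile, moved as a whole, from 283 to 529 bp in Normal replicate 1 and 293 to 551 bp in Normal replicate 2 to 221 to 433 bp and 224 to 436 bp in the HS replicates. Together the regions covered 3.68 and 3.81 Mb in the Normal lists and 3.02 and 3.04 Mb in the HS lists.

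The regions also stood lower within the HS lists than within the Normal lists. Their median percentile was 82.3 and 81.7 in Normal replicates 1 and 2 and 78.8 and 76.7 in HS replicates 1 and 2. The group values were 82.0 ± 0.406 and 77.8 ± 1.44 (SD, n = 2), a shift of -4.24 percentile points against a pooled SD of 1.06. The HS libraries did not overlap the Normal libraries in either measure, as the plot of medians and quartiles by library shows.

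**Figure D1:**
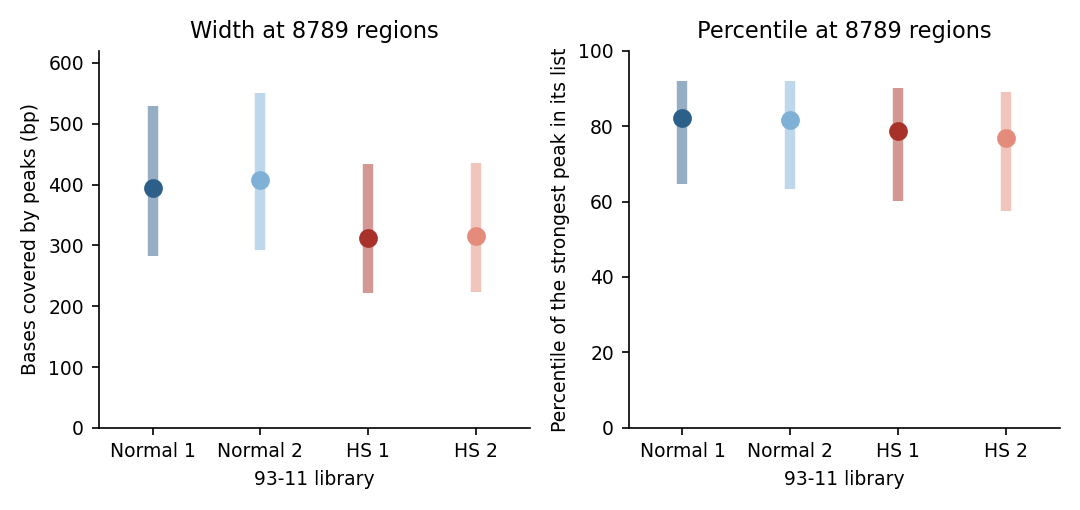
Width in bp (left) and percentile of the strongest peak within its list (right) of the 8789 regions in each 93-11 library. Points are medians and bars run from the lower to the upper quartile over regions. The Normal medians of 394 and 408 bp lie above the HS medians of 312 and 316 bp, and the Normal median percentiles of 82.3 and 81.7 lie above 78.8 and 76.7.

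The direction of the percentile shift depended on the length of the lists, and that of the width shift did not. Counted from the strongest peak of each list, the median rank of the regions was 5593.5 and 5601 in the Normal lists and 5290.5 and 5275.5 in the HS lists, so that under HS they stood nearer to the top. Divided by 1 fixed list length of 22684 peaks, the same ranks gave median percentiles of 75.3 and 75.3 in Normal and 76.7 and 76.7 in HS, a shift of 1.39 points upward. With each list reduced to its 20000 strongest peaks the shift was 0.30 points, and with percentiles taken among the regions alone it was 0.0057 points. Over the same reduced lists the width shift was -100 bp.

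Since each region has a peak in every list, the regions had to hold a larger share of the peaks in the shorter HS lists. Their peaks were 28.2% and 29.0% of all peaks in the Normal lists and 36.0% and 39.5% in the HS lists. Their share of the covered bases depends on their widths and also on the bases of all other peaks, so it is not free of list length either. All peaks together covered 10.0 and 10.1 Mb in the Normal lists and 6.97 and 6.49 Mb in the HS lists. The regions held 36.7% and 37.6% of these bases in Normal against 43.4% and 46.9% in HS. Among the strongest 10% of each list they were the large majority, with 86.4% and 86.9% in Normal and 88.2% and 88.9% in HS. Regions split into more than 1 peak numbered 126 and 95 in the Normal lists and 196 and 160 in the HS lists.

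Region by region, most were narrower and most stood lower in their list. The median width shift over the 8789 regions was -72.5 bp, with quartiles at -156.5 and -3 bp. Of the regions, 6655 (75.7%) were narrower under HS, 2116 (24.1%) were wider and 18 had equal widths. As a share of the Normal width of the same region the median shift was -18.3%. The median percentile shift per region was -2.40 points, with quartiles at -12.2 and 4.66, and 5483 regions (62.4%) shifted down while 3306 (37.6%) shifted up.

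These shifts were set against the difference between libraries of 1 condition. For width, the median absolute difference per region was 75 bp within Normal and 63 bp within HS, and 98 to 111 bp between libraries of different conditions. For the percentile it was 5.19 points within Normal, 8.09 within HS and 9.39 to 9.97 across conditions. The percentile of a single region therefore differed between conditions by little more than between the HS replicates, while the shift of the library medians exceeded their spread.

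A stricter count took the regions whose libraries did not overlap. Both HS widths lay below both Normal widths in 4129 regions (47.0%), beside 47.6% over all 9503 regions with a peak in every list. Both lay above in 769 regions (8.75%), beside 8.87% over all. Both HS percentiles lay below both Normal percentiles in 3183 regions (36.2%, beside 36.1% over all) and above them in 1621 (18.4%, beside 18.7%). Nothing is read from these shares about the short regions, which are most of that background and whose widths and percentiles entered the rule. On the rank from the top, the balance was the other way: 2636 regions (30.0%, beside 30.4% over all) stood nearer to the top in both HS lists and 2034 (23.1%, beside 23.1% over all) farther from it.

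Width and percentile moved together at many regions but not at all. There were 4867 regions (55.4%) that were narrower and lower in the list under HS and 1509 (17.2%) that were wider and higher. A further 1788 (20.3%) became narrower while standing higher, and 607 (6.91%) became wider while standing lower. Across the 8789 regions, which share the same 4 libraries, the Pearson correlation of the percentile shift with the width shift was 0.505. Regions with a lower percentile under HS had a median width shift of -106 bp, and those with a higher percentile one of -10.75 bp. Without overlap in either measure, 2166 regions (24.6%, beside 24.8% over all 9503) were narrower and lower and 467 (5.31%, beside 5.44%) wider and higher. Narrower and higher were 266 (3.03%, beside 3.19%), and wider and lower were 43 (0.489%, beside 0.495%).

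The narrowing took place at both ends. The left edge of the peaks lay a median of 28.5 bp further right under HS, and the right edge a median of 27 bp further left. Under HS the peak extent lay inside the Normal extent at 4439 regions (50.5%), and the reverse held at 1127 (12.8%), with 22 regions of equal extent counted in both. At 3245 regions (36.9%) the HS extent reached past the Normal extent at 1 end only. The centre of a region moved little more between conditions than between replicates, by a median of 42.5 to 44.5 bp between a Normal and an HS library against 40 bp within Normal and 34 bp within HS.

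**Figure D2:**
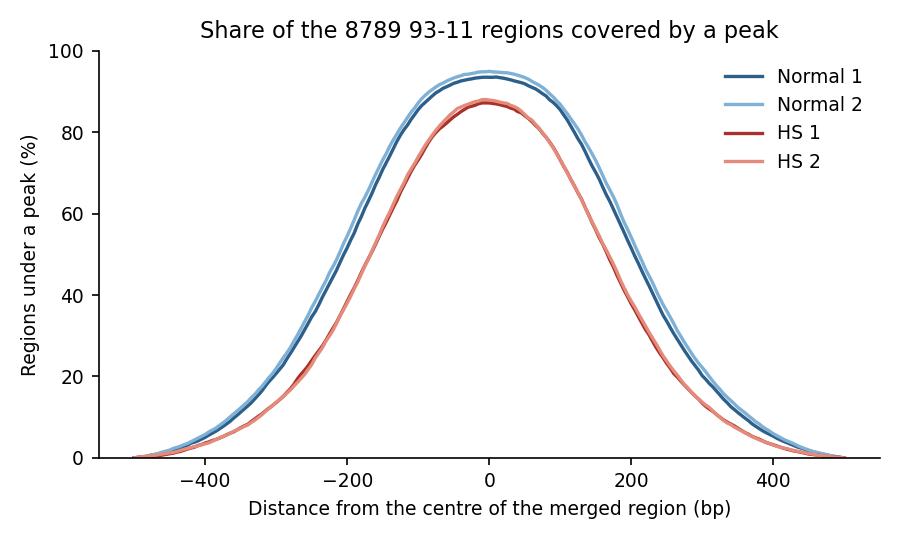
Share of the 8789 regions under a peak (%) against distance from the centre of the merged region (bp), with 1 line for each 93-11 library. At the centre 93.5% and 94.9% of regions were covered in the Normal lists and 87.2% and 87.9% in the HS lists, and the HS lines lie inside the Normal lines on both flanks.

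The plot of coverage around the centre shows the same at base level. The shared core of a region, covered by all 4 lists at once, had a median of 212 bp, or 47.3% of a median merged width of 519 bp. In 437 regions (4.97%) there was no base that all 4 lists covered, so these were joined through neighbouring peaks. The Normal lists shared no base in 92 regions and the HS lists in 130.

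The width shift was also seen at equal percentile within the lists, which is not an equal rank or an equal −log10 p, since the lists differ in length. When the peaks were sorted into 9 bands of percentile, both HS medians lay below both Normal medians in 9 of 9 bands. The shift ran from -11% among the weakest to -22.5% between percentiles 40 and 60, and was -12.8% between percentiles 95 and 99. At percentiles 80 to 90 the median widths were 400 and 426 bp in Normal and 326 and 337 bp in HS. Each library fills a band with different regions, so a band compares sets and not the same region.

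At equal −log10 p the size of the width difference varied with strength. It was -11.9% between values of 3 and 5 and -16.6% between 5 and 7. Between values of 7 and 10 the medians were 331 and 346 bp in Normal and 274 and 280 bp in HS, a shift of -18.2%. Between 30 and 50 they were 497.5 and 514 bp against 493 and 483 bp, a shift of -3.51%. Between 50 and 100 the libraries overlapped, with 580 and 573 bp in Normal and 587 and 576.5 bp in HS. At 100 and above the medians were 659 and 694.5 bp over 73 and 74 regions in Normal and 422 and 436 bp over 12 and 12 regions in HS, a shift of -36.6% between sets of very different size. The difference thus narrowed from 7 up to 100. The top band has no upper limit, so its -36.6% does not compare regions of equal −log10 p. At 11 regions all 4 lists held values of at least 100. Their median widths were 456 and 457 bp in Normal and 453 and 451 bp in HS. A −log10 p rises with depth, and the −log10 p values were set side by side across lists of different background rate.

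**Figure D3:**
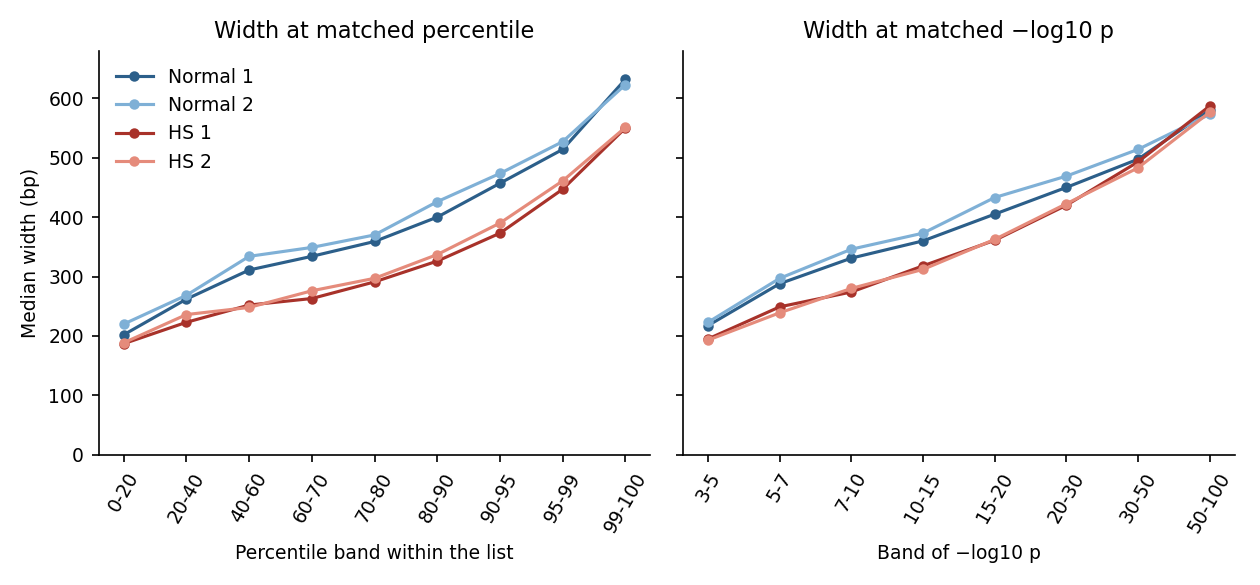
Median width (bp) of the regions of each 93-11 library in bands of percentile within the list (left) and in bands of −log10 p up to 100 (right). The HS lines lie below the Normal lines in 9 of 9 percentile bands, and the lines meet in the −log10 p band from 50 to 100, while the band above 100 is not drawn.

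Regions were then divided into deciles by the mean percentile over the 4 lists, from the weakest to the strongest. In the weakest decile (mean percentile 7.05 to 44.3) the median width shift was -21 bp and the percentile shift was upward, at 4.81 points. The largest downward percentile shifts were in deciles 3 and 4, at -9.23 and -9.41 points, and the largest median width shift was in decile 4, at -87.5 bp. In the strongest decile the percentile shift was -0.45 points and the width shift -67 bp. The weakest decile differed from the rest in direction, with 41.5% of its regions lower in the HS lists against 52.4% to 72.6% in the other deciles. A weak region had to pass the peak threshold in every list to be kept, which bounds its percentile from below in Normal and HS alike. The part of this bound in the upward shift was not tested.

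**Figure D4:**
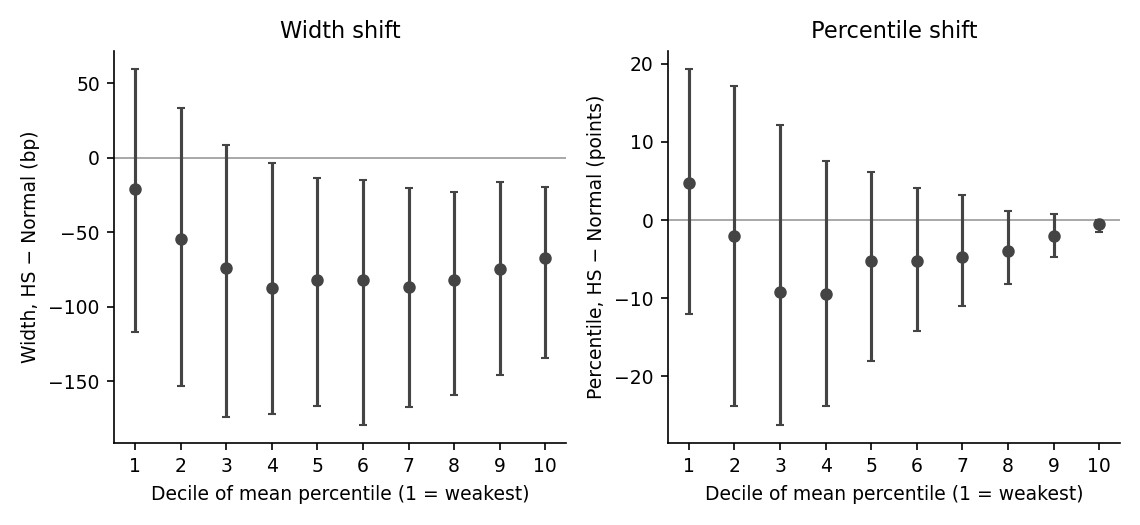
Width shift (bp, left) and percentile shift (points, right), HS minus Normal, in deciles of the mean percentile of the region over the 4 lists, from 1 (weakest) to 10 (strongest). Points are medians and bars run from the lower to the upper quartile over 878 or 879 regions. The width medians are below 0 in each decile, and the percentile median is above 0 in the weakest decile at 4.81.

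Some regions missed membership by 1 list. Below 1 kb, 5955 regions had a peak in 3 of the 4 lists. Of these, 944 lacked only Normal replicate 1 and 1019 only Normal replicate 2, while 1941 lacked only HS replicate 1 and 2051 only HS replicate 2. The 3992 that lacked an HS list had a median mean Normal percentile of 57.4, against 81.2 for the 8789 members. Regions that stood lower in Normal than the typical member and lacked a peak in 1 HS list are thus not among the members. Their median still lay above the middle of the Normal lists. No such value was taken for the 1963 that lacked a Normal list.

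Wider regions shrank by more bases. The median width shift was -18 bp for the 700 regions of up to 300 bp, -45.25 bp for the 1508 of 301 to 400 bp, -91.5 bp for the 1737 of 501 to 600 bp and -175 bp for the 369 of 901 to 999 bp. As a share of the Normal width it was -8.54% in the narrowest class and between -15.2% and -22.9% in the others. The merged width is part of the rule and holds the widest of the 4 peaks, so these classes are given as a description.

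The width shift was spread over the genome, and so was the percentile shift within the lists. On each of the 12 chromosomes both HS median widths and both HS median percentiles lay below both Normal values. The shift of the median width ranged from -73 bp on chromosome 6 to -103.5 bp on chromosome 8, and that of the median percentile from -2.89 points on chromosome 1 to -8.05 on chromosome 12. In windows of 5 Mb with at least 20 regions, the median width shift was below 0 in 82 of 82 and the median percentile shift in 80 of 82. These percentiles are within lists of different length and are not given at 1 fixed list length, where the shift over all regions was upward. The regions were densest on chromosome 3, with 30.6 per Mb up to its last peak, and sparsest on chromosome 11, with 13 per Mb. They were also the largest share of all merged regions on chromosome 3 (19.2%) and the smallest on chromosome 11 (10.9%).

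The median gap between neighbouring regions was 21872 bp. Over the 377 pairs of neighbours less than 1 kb apart, the Pearson correlation of their percentile shifts was 0.084 and of their width shifts 0.049, as a description over pairs from the same 4 libraries, so that even close neighbours shared little of their shift. Regions were also sorted by the distance to the nearest of 1760 regions found only in the HS lists. The 277 within 2 kb of one had a median percentile shift of -0.0092 points, and 50.2% of them shifted down, whereas the 7123 farther than 20 kb away had a median of -2.63 points, with 63.3% down. The median width shift was below 0 in each distance class, at -63.5 bp within 2 kb and -75 bp beyond 20 kb. The median percentiles of the near group were 78.3 and 77.3 in Normal and 79.8 and 79.1 in HS, the only distance class in which both HS libraries were the higher. For 5756 regions found only in the Normal lists, the 596 regions within 2 kb had a median shift of -3.29 points and the 4363 beyond 20 kb one of -2.25. Both classes together are fewer than the 28214 merged regions with a peak in only 1 list. Not every region seen in 1 condition only was thus counted in them. The shifts by distance are descriptions over regions of the same libraries, without a test. Their percentiles are within lists of different length and are not given at 1 fixed list length, where the shift over all regions was upward.

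The strongest regions as a class were narrower under HS, with medians of 632 and 623 bp in Normal and 550 and 551 bp in HS above percentile 99. Values of −log10 p of at least 100 in all 4 lists were found at 11 regions, a limit chosen after the values were seen and one that keeps only regions that stayed strong under HS. Their median widths were 456, 457, 453 and 451 bp in Normal replicates 1 and 2 and HS replicates 1 and 2, and their left edges differed over the 4 lists by a median of 11 bp and their right edges by 15 bp. All other members outside this group and the next one had median edge differences of 117 and 118 bp. The shared core was a median of 91.25% of the merged width in the 11 regions, against 47.1% in the others. In chr7:5428787-5428956 all 4 peaks had the same start and end, at a width of 170 bp.

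A further 41 regions reached 100 in both Normal lists and stayed below it in both HS lists. Their median −log10 p was 118 and 120 in Normal and 61.3 and 60.2 in HS, and their median width 691 and 708 bp in Normal and 618 and 630 bp in HS. At 34 of the 41 the width shift was below 0, with a median of -10.3%. In the 11 regions it was below 0 at 6, with a median of -0.756%. Both groups were chosen by their values, and the drop in value in the 41 follows from how they were picked, so no test was made.

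Within the 11 regions the values did not move in 1 direction. These values rise with the depth of a library, which is unknown, and were set side by side without correction for it. The highest value by far was at chr11:5349731-5350399, where −log10 p was 8033 and 8535 in Normal and 10072 and 10212 in HS, at widths of 654, 669, 660 and 653 bp. At chr4:13143497-13143857 the values were 213 and 362 in Normal and 522 and 525 in HS, and at chr1:19012050-19012470 they were 190 and 237 in Normal and 275 and 309 in HS. In these regions both HS values exceeded both Normal values, and the same held at chr10:16543-16736. At chr8:23619701-23620157 the values were 707 and 690 in Normal and 428 and 431 in HS, with widths of 456, 457, 453 and 451 bp. In 4 of the 11 both HS values were lower and in 3 the conditions overlapped, among them chr5:14612975-14613599, with 1050 and 1016 in Normal and 926 and 1039 in HS. The chromosome 5 regions lay close to each other, the second being chr5:14597018-14597538, and 3 of the 11 regions lay near the start of chromosome 10, at chr10:11633-12598, chr10:12831-13150 and chr10:16543-16736.

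Changes in single regions were examined by choosing on replicate 1 and reading replicate 2. The decile of regions (878 of them) with the largest fall in percentile from Normal replicate 1 to HS replicate 1 had a median shift of -41.6 points there and -17.1 points in replicate 2, where 79.4% were below 0. The decile with the largest rise had medians of 34.8 and 14.0 points, with 71.9% above 0 in replicate 2. For width, the decile that narrowed most had medians of -355 and -193 bp, with 85.4% below 0 in replicate 2. The decile that widened most had medians of 181 and 9 bp, and 51.4% were above 0 in replicate 2. Over all regions the replicate 2 shift was -2.26 points, with 61.0% below 0 and 39.0% above, and -72 bp, with 72.4% below 0 and 27.2% above. In each of these deciles the replicate 2 shift lay on the same side of the value over all regions as the replicate 1 shift that chose them, and it was smaller. The replicate 2 peaks also entered membership and merged width, and all regions share the same 4 libraries. The shares are therefore a description over regions, which are not replicates of a condition.

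The named regions were chosen in the same way, on replicate 1 alone. The largest fall in replicate 1 was at chr1:27033953-27034511, at percentiles 89.2 and 89.2 in Normal and 0.206 and 36.4 in HS, with widths of 519 and 444 bp against 187 and 160 bp. At chr2:26431945-26432917 the percentiles were 87.7 and 85.2 in Normal and 2.56 and 10.1 in HS, with widths of 510 and 973 bp against 150 and 177 bp. Both regions were low in both HS libraries. At chr7:12080427-12080946 and chr11:4101933-4102326 the fall of replicate 1 was large, to percentiles 1.37 and 8.46 in HS replicate 1, but HS replicate 2 stood at 71.3 and 74.5, nearer to the Normal values of 87.5 and 90.7 at the former and 93.9 and 88.7 at the latter.

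Among the rises, chr2:33954391-33954956 stood at percentiles 1.21 and 37.5 in Normal and 96.2 and 95.6 in HS. At chr1:43555483-43556291 they were 4.47 and 48.2 in Normal and 91.2 and 96.7 in HS, and the width went from 129 and 164 bp to 594 and 788 bp. At chr8:24773956-24774351 they were 7.74 and 36.9 in Normal and 91.6 and 86.4 in HS. All of these were higher in both HS libraries. The remaining one, chr5:18766592-18767203, stood at 6.21 and 52.5 in Normal and 86.0 and 33.7 in HS, so that the libraries overlapped.

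The regions chosen for width changed less evenly. At chr4:33496001-33496985 the widths were 979 and 926 bp in Normal and 219 and 611 bp in HS, and at chr1:24228279-24229233 they were 955 and 849 bp in Normal and 164 and 709 bp in HS. The other narrowed regions were chr3:12807072-12808002, with 931 and 516 bp against 185 and 495 bp, and chr3:9267337-9268254, with 918 and 231 bp against 164 and 231 bp. At the last of these the width in replicate 2 was equal in both conditions, and no base was covered by all 4 lists. Of the widened regions, chr3:9252832-9253768 went from 136 and 442 bp to 937 and 612 bp and chr8:25981711-25982660 from 299 and 529 bp to 950 and 649 bp. At chr4:8096563-8097454 (189 and 283 bp in Normal, 892 and 151 bp in HS) and chr9:9213082-9213881 (138 and 265 bp in Normal, 800 and 149 bp in HS) HS replicate 2 was narrower than Normal replicate 2.

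At the width limit, the widest members had a merged width of 999 bp. They were chr3:30619545-30620543, with peak widths of 715 and 919 bp in Normal and 219 and 295 bp in HS, chr4:24869005-24870003, with 875 and 776 bp in Normal and 999 and 912 bp in HS, and chr9:2177251-2178249, with 679 and 999 bp in Normal and 720 and 356 bp in HS. Just outside it, at 1000 bp, were chr1:26416723-26417722 (710 and 621 bp in Normal, 450 and 887 bp in HS), chr1:44251461-44252460 (994 and 518 bp, 148 and 145 bp) and chr4:33793484-33794483 (920 and 818 bp, 663 and 557 bp). Inside the limit 1 region was narrower in both HS libraries, 1 was wider in both and 1 overlapped, and outside it 2 were narrower in both and 1 overlapped.

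The short regions were compared with the 714 regions of 1 kb or more from the same lists. The latter had median widths of 919.5 and 963 bp in Normal and 632.5 and 657 bp in HS, a shift of -31.5% of the Normal width beside -21.7% for the short regions. The difference of 9.80 percentage points became 19.3 points when width was that of the strongest peak alone and -1.88 points when it was the span from the first to the last base. The percentile shift was -3.41 points in the wider regions and -4.24 in the short ones, a difference of -0.83 points. The sets are split by merged width and 4 lists allow no p below 0.333, so both differences are given as values and nothing is called from them.

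The regions chosen by the same rule in Nip moved the opposite way. There were 17506 of them among 49606 merged regions, with median widths of 402 and 398 bp in Normal and 478 and 478 bp in HS, a shift of 78 bp. The difference between the cultivars in the width shift was -165 bp, and in each cultivar both HS libraries lay on 1 side of both Normal libraries. It is given as a description, since presence and merged width chose the regions and 8 libraries allow no p below 0.0556 when conditions are exchanged within cultivar. The background rate also moved in opposite directions, from 5.31 and 5.21 in Normal to 6.79 and 6.85 in HS in Nip, and its part in the width difference was not tested.

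For the percentile, the Nip regions had medians of 65.0 and 62.7 in Normal and 68.8 and 69.2 in HS, a shift of 5.16 points. The difference from 93-11 was -9.39 points, again as a description. With 1 fixed list length for each cultivar the difference was 2.44 points, and over the 20000 strongest peaks of each list it was 0.99 points, so its direction turned with the list length. The cultivars do not share coordinates here, and no region of one was matched to a region of the other.

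**Figure D5:**
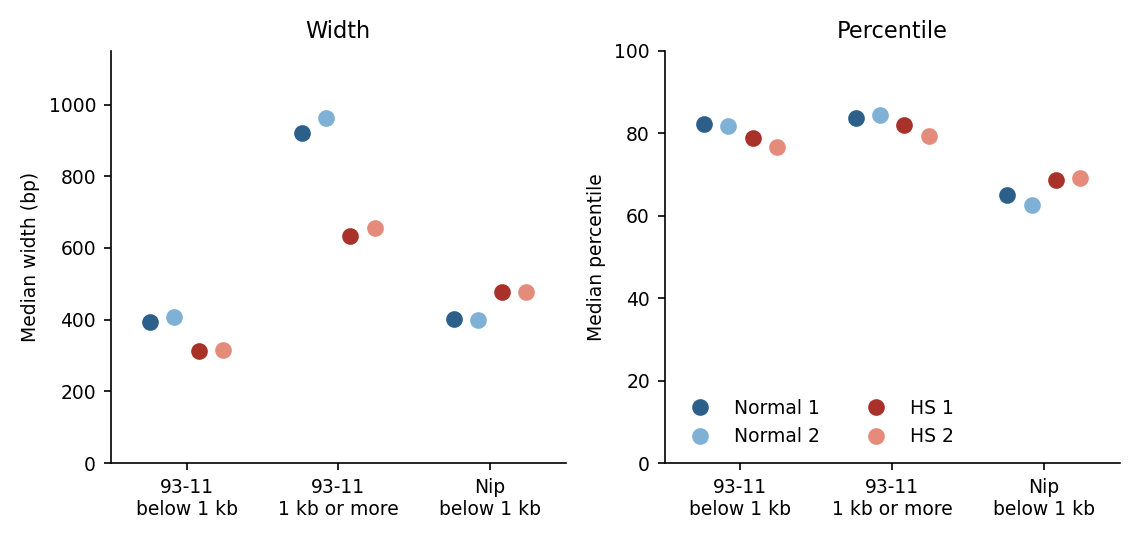
Median width (bp, left) and median percentile within the list (right) in each library for the 8789 short 93-11 regions, the 714 of 1 kb or more in 93-11 and the 17506 short Nip regions. Each point is 1 library. The HS points are below the Normal points in both 93-11 sets and above them in Nip.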

How the data were processed

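The authors deposited 1 peak list per ATAC-seq library, 2 libraries per group, without pooling replicates. Per the study's methods, reads were trimmed with Cutadapt 2.4, mapped with Bowtie2 2.3.5.1, filtered with SAMtools 1.9 (mapping quality of at least 30, proper pairs, no organelle reads) and Picard 2.20.3, and MACS2 2.1 called peaks with an adjusted p-value threshold of 0.05. The submitters' processing notes instead name BWA 0.7.10-r789, SAMtools 0.1.19, deepTools 2.0 and MACS2 2.1.1, and which set made the files was not settled. A shift for the Tn5 offset was not stated. The deposited value has no header and was read from its values as an unadjusted −log10 p. It rises with depth, which is unknown, so peaks were ranked within each list.

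Groups and replicate numbers came from the sample titles. Overlapping or touching peaks on the 12 chromosomes were merged, and the regions with a peak in all 4 lists and a merged width below 1000 bp were kept. Percentiles are mid-ranks over all peaks of a list. The background rate is the Poisson rate for which the upper tails of whole-number pileups came closest to the 12 commonest values of a list. Differences between sets of regions were also put through exact two-sided permutation of condition, from which no call was made, and calculations used Python 3.11.15, NumPy 2.4.6, pandas 2.3.3 and SciPy 1.17.1, after a test on simulated data. Named regions were the 4 with the highest mean percentile, the 4 with the largest fall, rise, narrowing and widening each in replicate 1, and the 3 on either side of the width limit. The members, lists and tests were chosen with earlier results of these data known. No sequence is printed, since no 93-11 genome was used here.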

Additional observations from a re-analysis of the deposited data

Results flagged for a closer look

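The shift from Normal to HS differed in direction between the cultivars at constitutive regions below 1 kb. For width the difference, 93-11 minus Nip, was -165 bp, with both HS medians below both Normal medians in 93-11 and above them in Nip. The background rate also fell in 93-11 and rose in Nip, and its part in the width difference was not tested. For the percentile the difference was -9.39 points, with the same separation of libraries, and it turned to 2.44 points at a fixed list length. No call was made from a test of either, since the regions were chosen on presence and merged width and the smallest p the design allows is 0.0556.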

How the results depend on the processing

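Of 153 recalculated values, 126 stayed within the replicate spread, within 1.5 times of a count or, for differences between sets, in the same direction, 19 moved and 8 reversed. With ranks over 1 fixed list length, the percentile shift was 1.39 points, 2034 regions were lower and 2636 higher without overlap, and the difference from Nip was 2.44 and from the regions of 1 kb or more -0.23. Over the 20000 strongest peaks of each list the percentile shift was 0.30, its difference from Nip 0.988 and from the regions of 1 kb or more 0.245, with 1884 regions lower and a width shift of -100 bp. Percentiles among the regions alone gave 0.0057. A mean over peaks turned the difference from the wider regions to 1.58 points, and widths as spans turned theirs to -1.88, while the strongest peak alone gave 19.3. Peaks with −log10 p of at least 5 gave a percentile shift of -5.58. A limit of 500 bp left 4013 regions, with shifts of -57 bp and -3.17 points, and 1724 narrower, 371 wider, 1319 lower and 767 higher without overlap. Leaving out 1 library at a time, the count of wider regions was 1446 to 1552 and of higher ones 2329 to 2820, since 3 values overlap less often than 4. The differences from Nip (-165 bp and -9.39 points, the same with and without the replicate block) had p = 0.0556 in an exact permutation test and p = 0.125 with the replicate block, each the smallest possible there, and those from the wider regions p = 0.333 for width and 0.667 for the percentile, so none is a call. The direction of the width shift was the same under each alternative run. The 2 libraries per group and the unknown depth limit every comparison.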
